A study of Mus musculus with 2 samples.

Results

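The genes described are the 10 keratins of the interfollicular epidermis and of stressed epidermis: Krt5, Krt14 and Krt15 of the basal layer, Krt1, Krt10 and Krt2 of the suprabasal layers, and Krt6a, Krt6b, Krt16 and Krt17, which activated or wounded keratinocytes make. They were chosen by gene name, current or older, among the gene spots of both arrays, and they make up 10 of the 27975 named genes on the array. They were covered by 13 probes of 60 bases. All 10 genes had a tested probe, and 12 of the 13 probes were tested.

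RNA of primary epidermal keratinocytes from K14-caSmad1 mice was compared with that of wild-type mice on 2 two-colour Agilent arrays. The strain was FVB/NJ and the age day 20 after birth in both groups. K14-caSmad1 animals carry a transgene for a constitutively active Smad1, a transcription factor that relays bone morphogenetic protein signals, and K14 in its name refers to the keratin 14 promoter, which is active in basal keratinocytes and the outer root sheath. On both arrays wild type was labelled with Cy3 and K14-caSmad1 with Cy5, with no dye swap, so that a dye effect and the genotype cannot be told apart. The labels call the arrays biological replicates but give neither the number or sex of the animals, nor whether RNA was pooled, nor whether the cells were cultured.

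Keratins are the intermediate filament proteins of epithelial cells, and each filament is built from obligate pairs of an acidic type I and a basic type II keratin. Basal keratinocytes pair Krt5 with Krt14, cells that leave the basal layer switch to Krt1 with Krt10 and later add Krt2, and wounded or hyperproliferative epidermis adds Krt6 with Krt16 and Krt17. The type I genes lie in a cluster on mouse chromosome 11 and the type II genes in a cluster on chromosome 15. Krt6a, Krt6b, Krt16 and Krt17 are also made without injury in the hair follicle, mainly in the companion layer and outer root sheath, and Krt5, Krt14 and Krt15 are made there too.

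All 10 keratins stood above 0 on both arrays on the scale of the log2 ratio of K14-caSmad1 over wild type, although Krt10 was close to 0 by its brightest probe and at -0.01 under 1 of the other settings. The median log2 ratio of the 10 was 1.11, against -0.03 for the 11748 genes tested. At least 2-fold higher on both arrays were 6 of the 10 keratins (60%), against 4.09% of all genes tested. Of these, Krt6b was read by a probe that is also assigned to Krt6a. At least 2-fold lower were 0 of the 10, against 9.81% of all genes. By limma with Benjamini-Hochberg adjustment 9 were higher and 0 lower, against 40.8% and 46.3% of all genes, and 87.1% of genes passed that test in either direction. A call by limma thus separates few genes from the rest, and sizes are given first.

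The spread between the arrays was compared with that of repeated spots of 1 array. Over 12287 probes with a single spot, subtracting one array's log2 ratios from the other's left an SD of 0.0946, and repeated spots predict 0.106. Averaged over the spots of 92 repeated probes it left 0.0523, where 0.0336 is predicted. The first comparison shows no spread beyond spot noise and the second some. Whether different animals were behind each array is not stated, so both together were taken as 1 sample, and the p-values measure how well the arrays repeated, not the spread between animals. An exact sign permutation of 2 arrays cannot go below p = 0.5. Gene spots well above background numbered 15570 and 16144 in the wild-type channel and 14412 and 15800 in the K14-caSmad1 channel. Smad1 itself had log2 ratios of 0.28 and 0.27, and its probe does not separate the transgene from the endogenous gene.

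The probes on which the readings turn are printed first. They come from the scanner files, with the longest run shared with any other gene probe on the array in capitals. That run was 12 to 14 bases of 60 over all 13 keratin probes. Probes were compared only with other probes and not with transcripts, so the run does not show which transcripts a probe reads. The Krt6b probe, with a run of 12, is assigned to transcripts of both Krt6b and Krt6a. The first pair is named Krt10 in the file, through different sequence records, and gave different ratios. The third is the dimmer of the Krt2 probes, and the fourth is the only Krt6b probe.
Krt10, probe A_51_P111285: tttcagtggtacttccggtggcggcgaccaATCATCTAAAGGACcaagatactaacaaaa
Krt10, probe A_52_P76277: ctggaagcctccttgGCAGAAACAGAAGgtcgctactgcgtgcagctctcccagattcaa
Krt2, probe A_52_P462608: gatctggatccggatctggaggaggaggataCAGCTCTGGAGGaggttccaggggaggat
Krt6b, probe A_51_P126275: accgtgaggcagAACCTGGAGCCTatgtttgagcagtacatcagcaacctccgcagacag

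**Figure D1:**
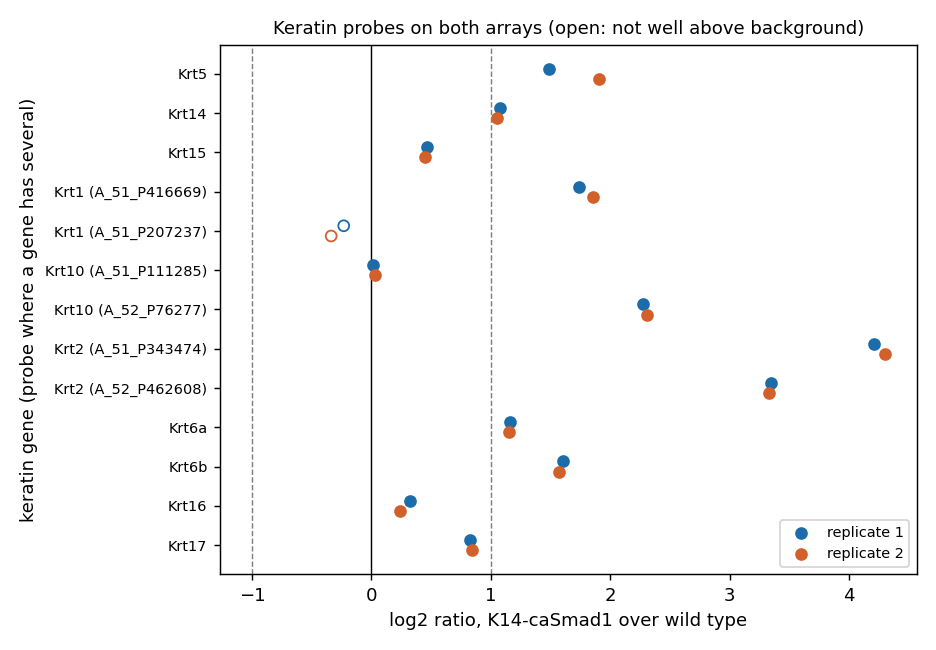
Log2 ratio of K14-caSmad1 over wild type for each of the 13 keratin probes on replicate 1 and replicate 2, with dashed lines at 2-fold lower and 2-fold higher. The probe named A_51_P207237 was not well above background and is drawn open; the Krt10 probes stand at 0.02 and 2.29, and the arrays differ most for Krt5, at 1.49 and 1.91.

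The basal type II keratin Krt5 was higher in K14-caSmad1 keratinocytes on both arrays. Its normalised intensity, in arbitrary units that compare channels of 1 probe but not probes with each other, was 28652 and 32345 in wild type on replicates 1 and 2, and 80234 and 121518 in K14-caSmad1. Log2 ratios were 1.49 and 1.91, with a mean of 1.70 ± 0.30 (SD, n = 2 arrays), or 3.24-fold. The arrays differed more in size than for any other tested keratin probe. The difference of 0.42 between the arrays was exceeded by only 0.854% of tested probes, and it came with a K14-caSmad1 signal 1.51 times as bright on replicate 2 against 1.13 times in wild type. By limma with Benjamini-Hochberg adjustment over all genes the adjusted p was 0.00047, and Krt5 ranked 42 from the top of 11748 genes.

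Krt14, the type I partner of Krt5, rose with a smaller ratio on both arrays. Its normalised intensity was 32400 and 34939 in wild type and 68547 and 72476 in K14-caSmad1. The log2 ratios were 1.08 and 1.05, with a mean of 1.07 ± 0.0201 (SD, n = 2 arrays), or 2.09-fold (limma with Benjamini-Hochberg adjustment, adjusted p = 5.18e-05). The arrays repeated closely, and Krt14 ranked 427. Within each array Krt5 exceeded Krt14 by 0.41 on replicate 1 and 0.86 on replicate 2 in log2 ratio, a mean of 0.63 ± 0.32 (SD, n = 2 arrays), or 1.55-fold. The order of the partners was the same on both arrays, while the size of the gap differed between them through the Krt5 spot. That gap was not tested.

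Krt15, a second basal type I keratin that is also high in the follicle bulge, showed the smallest rise of the basal keratins. Its normalised intensity was 96014 and 93646 in wild type and 132972 and 127994 in K14-caSmad1. This gave log2 ratios of 0.47 and 0.45, a mean of 0.46 or 1.38-fold (limma with Benjamini-Hochberg adjustment, adjusted p = 0.00026). Krt14 exceeded Krt15 by 0.61 and 0.60 in log2 ratio, and Krt5 exceeded it by 1.02 and 1.46. The probes of the basal keratins thus stood in the order Krt5, Krt14, Krt15 on each array. Each gap was larger than the SD of 0.0946 between arrays over single-spot probes, although the Krt5 spot itself differed by 0.42. That SD does not cover differences between probes of a single gene, which were 0.92 for Krt2 and 2.27 for Krt10. Where all spots, including 36 on an uneven local background, entered the background correction, Krt15 no longer passed limma with Benjamini-Hochberg adjustment (0.52, adjusted p = 0.0614).

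**Figure D2:**
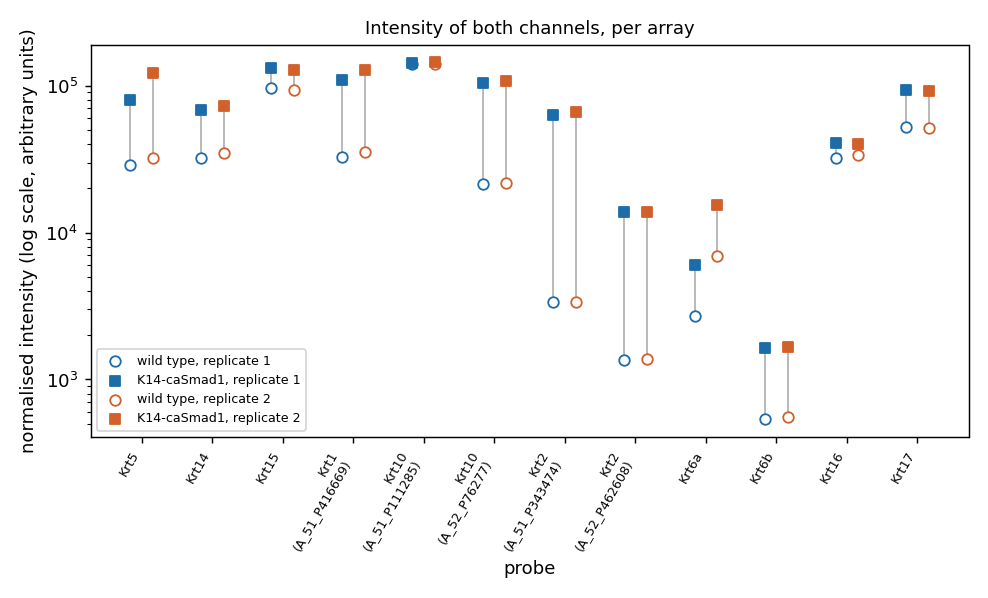
Normalised intensity of both channels on a log axis, for the 12 tested keratin probes on both arrays, with wild type as circles, K14-caSmad1 as squares and a line joining the channels of 1 array. Levels of different probes are not comparable; the joined pairs are widest for Krt2 and almost coincide for the Krt10 probe A_51_P111285, and the Krt6a spot is brighter in both channels of replicate 2.

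Krt2, the type II keratin of the upper spinous and granular layers, had the highest ratio of all genes tested: 0 of the 11748 genes stood above it. By its brighter probe the normalised intensity was 3395 and 3351 in wild type and 62971 and 66009 in K14-caSmad1. The log2 ratios were 4.21 and 4.30, a mean of 4.26 or 19.1-fold (limma with Benjamini-Hochberg adjustment, adjusted p = 1.57e-05). The dimmer probe, A_52_P462608, rose from 1350 and 1377 to 13709 and 13824, with log2 ratios of 3.34 and 3.33, or 10.1-fold. Both probes put Krt2 above every other keratin probe, although their sizes differed by 0.87 and 0.97, or 1.89-fold. The probes start at bases 2347 and 1794 of the transcript in the file. The 3 genes nearest to Krt2 in mean log2 ratio were Hrnr at 3.03, which encodes the granular-layer protein hornerin, Cav2 at 2.59, which encodes a caveolin, and Cyp2g1 at 2.35, a cytochrome P450. None lay within 1 unit of it on the log2 scale.

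Krt1, the type II keratin that marks commitment to differentiation, was also higher. Its normalised intensity was 32533 and 35216 in wild type and 108848 and 127629 in K14-caSmad1. On the log2 scale the ratios were 1.74 and 1.86, a mean of 1.80 or 3.48-fold (limma with Benjamini-Hochberg adjustment, adjusted p = 4.42e-05), and Krt1 ranked 31. A second probe with the name Krt1, A_51_P207237, stands for a cDNA clone and is the only keratin probe that the file places on the plus strand. It was not well above background in any channel, with 156 and 163 in wild type and 133 and 129 in K14-caSmad1, and was not tested. Only 1 Krt1 probe therefore carries the reading.

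Krt10, the type I partner of Krt1, gave a different answer with each of its probes. Probe A_51_P111285, the 5th brightest of 15105 tested probes, read 141672 and 140611 in wild type and 142803 and 144033 in K14-caSmad1. Its log2 ratios were 0.01 and 0.03, a mean of 0.02 or 1.02-fold, and did not pass limma with Benjamini-Hochberg adjustment (adjusted p = 0.428). Probe A_52_P76277 read 21434 and 21604 in wild type and 103972 and 107165 in K14-caSmad1, with log2 ratios of 2.28 and 2.31, a mean of 2.29 or 4.91-fold. The probes disagreed by 2.27 and 2.28 in log2 ratio, or 4.83-fold, and each repeated to within 0.03 on the other array. The disagreement is therefore far larger than the spread between arrays.

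Several measurements go with that disagreement. The probe near 0 starts at base 1685 of one Krt10 sequence record and the other at base 1163 of another, so these positions are not on a common scale. The probe near 0 held the brightest Cy5 spot of any gene on both arrays, with mean scanner signals of 238900 and 246200. Across all gene spots 0 were marked as saturated, and Cy3 reached 280800 and 286100. Before any normalisation, the mean scanner signal of this probe was 85000 and 82600 in wild type. The scanner's own log2 ratios, with the software's dye correction and no loess of limma, were 0.07 and 0.05 for this probe and 2.31 and 2.35 for the other, a disagreement of like size. The part of position and brightness in the difference was not tested.

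How Krt1 compares with its partner depends on that choice. Krt1 exceeded Krt10 by 1.73 and 1.82 in log2 ratio with the brighter Krt10 probe, a mean of 1.78 ± 0.0651 (SD, n = 2 arrays) or 3.43-fold. It was below Krt10 by the other probe, with differences of -0.54 and -0.45 and a mean of -0.49. Neither order can be preferred from these arrays. Krt2 was above both partners with every pairing of probes: it exceeded Krt1 by 2.46 or, with the dimmer Krt2 probe, by 1.54, and exceeded Krt10 by 4.23, 3.31, 1.96 or 1.04. The smallest of these, 1.04, is 2.06-fold.

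Krt6a, a type II keratin of activated keratinocytes and of the follicle's companion layer, was higher in K14-caSmad1. Its normalised intensity was 2703 and 6979 in wild type and 6031 and 15475 in K14-caSmad1. The Krt6a spot was thus 2.58 times as bright on replicate 2 in wild type and 2.57 times in K14-caSmad1, so that the wild-type value of 1 array exceeds the K14-caSmad1 value of the other. The ratio within each array was unaffected, with log2 ratios of 1.16 and 1.15, a mean of 1.15 or 2.22-fold (limma with Benjamini-Hochberg adjustment, adjusted p = 4.27e-05). Krt6a ranked 325. For the other tested keratin probes, replicate 2 was at most 1.17 times as bright as replicate 1 in either channel, except for the 1.51 times of Krt5 in K14-caSmad1.

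Krt6b, a near-identical neighbour of Krt6a, was higher too. Its normalised intensity was 538 and 556 in wild type and 1642 and 1654 in K14-caSmad1, the lowest signals of the tested keratin probes. Its log2 ratios were 1.61 and 1.57, a mean of 1.59 or 3.01-fold (limma with Benjamini-Hochberg adjustment, adjusted p = 3.16e-05), and Krt6b ranked 72. The file assigns this probe to transcripts of both Krt6b and Krt6a, so the signals of these genes cannot be told apart by it. At such low signals the size also depends on the background correction: it ranged from 1.05 to 2.61 over the settings tried.

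Krt16, the type I partner of Krt6, rose least of the stress keratins. Its normalised intensity was 32395 and 33901 in wild type and 40614 and 39954 in K14-caSmad1. The log2 ratios were 0.33 and 0.24, a mean of 0.28 or 1.22-fold (limma with Benjamini-Hochberg adjustment, adjusted p = 0.00253). With all spots in the background correction it did not pass the same test (0.36, adjusted p = 0.234). Krt17, a type I keratin of follicle epithelium and wounds, lay between. It rose from 52630 and 51154 to 93475 and 91476, with log2 ratios of 0.83 and 0.84, a mean of 0.83 or 1.78-fold (limma with Benjamini-Hochberg adjustment, adjusted p = 6.97e-05).

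The probes of the stress keratins stood in 1 order on both arrays, that of Krt6b above Krt6a above Krt17 above Krt16, except that the Krt6b probe (1.05) was below Krt6a (1.22) with all spots in the background correction. Because the Krt6b probe is assigned to both genes, this gives no order of Krt6b and Krt6a themselves. Krt6b exceeded Krt16 by 1.28 and 1.33 in log2 ratio, a mean of 1.31 ± 0.0368 (SD, n = 2 arrays) or 2.48-fold. Krt6a exceeded Krt16 by 0.83 and 0.91 and Krt17 by 0.33 and 0.31. Krt16 was below Krt17 by 0.50 and 0.60, a mean of -0.55 ± 0.07 (SD, n = 2 arrays). Every one of these gaps was larger than the spread between arrays, and none was tested. That spread does not cover differences between probes: the probes of a single gene differed by 0.92 for Krt2 and 2.27 for Krt10. The order is thus one of probes and may not be that of the genes. The Krt6b probe stood above Krt16 in the mean of the arrays under every setting tried, by 0.68 to 2.32. The gap of 0.68, with all spots in the background correction, had an SD of 0.923 between the arrays and was thus smaller than its spread.

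By the brightest probe of each gene, the type II keratins stood above the type I keratins. At least 2-fold higher were 5 of 5 type II genes, Krt1, Krt2, Krt5, Krt6a and Krt6b, and 1 of 5 type I genes, Krt14. The Krt6b probe is also assigned to Krt6a, so it may not be a separate reading. By its other probe, Krt10 would join the higher type I genes. On both arrays every type II gene had a higher ratio than every type I gene, with the lowest type II gene, Krt6a, at 1.15 and the highest type I gene, Krt14, at 1.07. That gap is small, and the order does not hold with the other Krt10 probe at 2.29. It also fails without background subtraction, where Krt6a had 1.18 and Krt14 had 1.23, and with all spots in that correction, where Krt6b had 1.05 and Krt14 had 1.14. Over the 12 tested probes the mean log2 ratio ran against the log2 wild-type level (Pearson r = -0.63, Spearman rho = -0.7). That level is also the denominator of the ratio. The brighter Krt10 probe and the Krt15 and Krt17 probes, all type I, were the brightest keratin probes in wild type. The part of brightness in the order of the types was not tested. Counted by probe, 8 of 12 tested keratin probes were at least 2-fold higher, against 3.79% of 15105 probes, and 0 were at least 2-fold lower, against 9.49%.

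Many of these probes gave bright signals. Of the 12 tested probes, 7 were among the 200 brightest tested. At that end the loess curve rests on few probes and these include hair keratins: of the 500 brightest tested probes 37 (7.4%) belonged to hair keratins or keratin-associated proteins, against 0.417% of all tested probes, and 8 to the keratins described here. The median log2 ratio of the remaining bright probes was -0.02. With keratin and keratin-associated genes given no weight in the curve, Krt10 moved from 0.02 to -0.01 and no other keratin changed its sign.

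**Figure D3:**
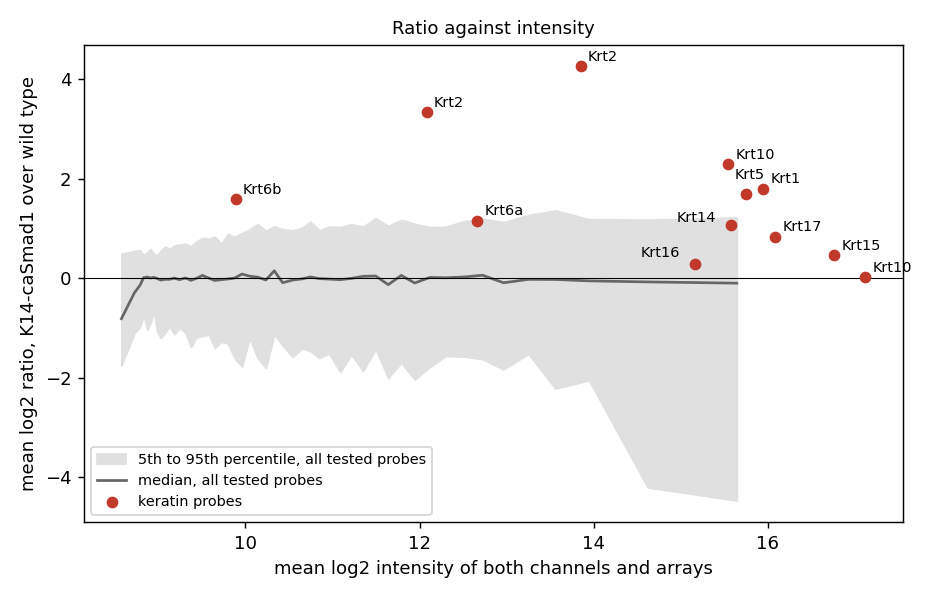
Mean log2 ratio against mean log2 intensity for the 12 tested keratin probes, over the central range (grey) and median (line) of all 15105 tested probes in intensity bins. The Krt2 probes, the Krt10 probe at 2.29 and the Krt6b probe lie above the grey band. Krt1, Krt5, Krt15, Krt17 and the Krt10 probe at 0.02 lie at the bright end, beyond the median intensity of the last bin, where the band ends.

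The genes lie in the keratin clusters, where the hair shaft, inner root sheath and companion layer keratins moved the other way. Other neighbours stayed near 0, such as Krt23 beside Krt10 at 0.11 and Krt79 beside Krt1 at -0.13. Probe positions are those of the file, on mouse build mm9. Of 37 tested keratins in both clusters, 6 were at least 2-fold higher and 21 at least 2-fold lower on both arrays. The shares of all genes tested were 4.09% and 9.81%. All 6 that were higher are among the 10 keratins described, and all 21 that were lower are among the other 27. On chromosome 15, 18 tested genes spanned 683 kb, with 5 higher and 9 lower. On chromosome 11, 19 tested genes spanned 940 kb, with 1 higher and 12 lower.

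Opposite ratios occurred between adjacent tested genes. The Krt5 probe (chr15:101537514-101537573) lies 26.9 kb from that of Krt71, an inner root sheath keratin with a log2 ratio of -3.15, and Krt71 lies 76.9 kb from Krt2 (chr15:101641326-101641385). Krt1 (chr15:101676107-101676166) follows Krt2 at 34.8 kb. Krt6b (chr15:101509450-101509509), Krt6a (chr15:101520862-101520921) and Krt5 follow one another at 11.4 and 16.7 kb and were all higher. Krt75, a companion layer keratin 114.6 kb before Krt6b, had -1.5. The run Krt6b, Krt6a, Krt5 and the pair Krt2, Krt1 were thus the higher genes of the cluster, with the lower Krt71 between them.

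In the type I cluster the brighter Krt10 probe (chr11:99246939-99247281) lies 20.7 kb from Krt28, an inner root sheath keratin at -4.97. The second Krt10 probe is at chr11:99247994-99248053. Krt15 (chr11:99993340-99993399) lies 10.9 kb from Krt13, a keratin of mucosal epithelia, at -1.63, although another Krt13 probe read -0.05. Krt14 (chr11:100064683-100065288) lies 16.3 kb from Krt9, the keratin of palms and soles. Krt9 was not well above background in K14-caSmad1 and at least 1.25-fold lower, a bound set by the lowest signal that counts as above background. Krt16 (chr11:100107405-100107464) and Krt17 (chr11:100117584-100117643) lie 10.2 kb apart. The positions of the Krt14 and brighter Krt10 probes span 606 and 343 bases for 60 bases of probe, so the file places them across an intron.

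**Figure D4:**
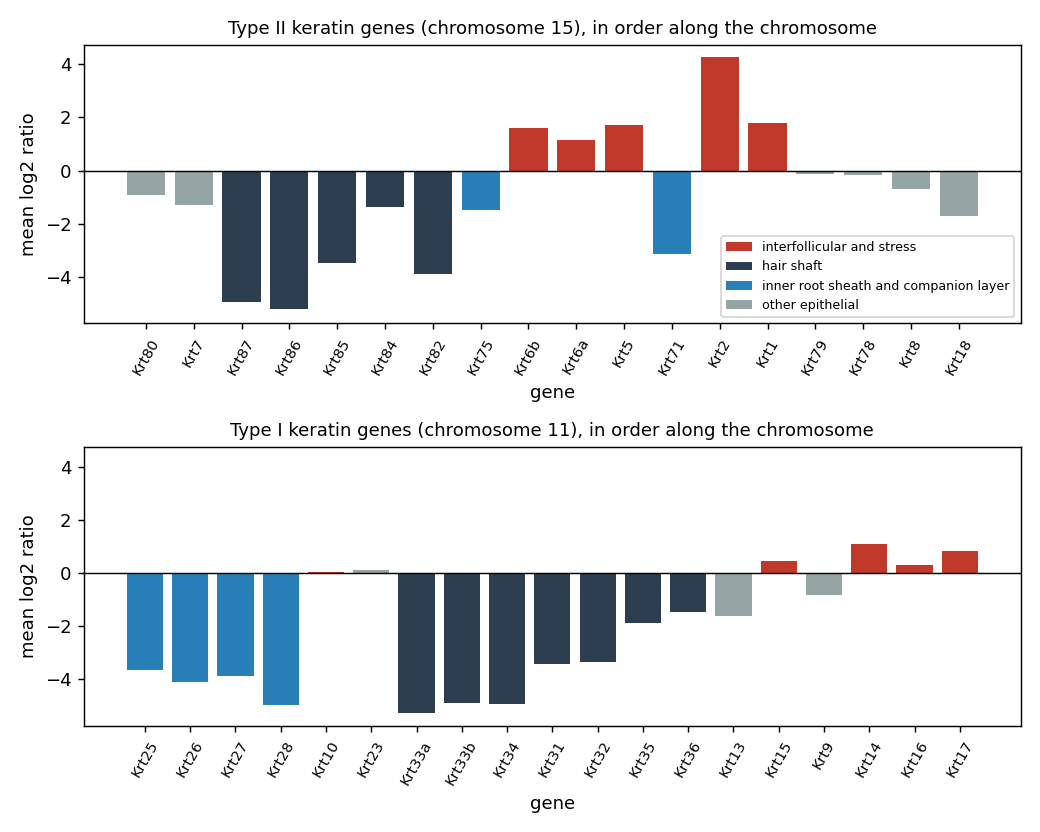
Mean log2 ratio of each tested keratin gene in chromosome order, with the type II cluster (18 genes) above and the type I cluster (19 genes) below, coloured by where the keratin is made. Bars of the interfollicular and stress keratins are at or above 0 (Krt10 is at -0.01 with keratins kept out of the loess curve), reaching 4.26 for Krt2, and all hair shaft and inner root sheath or companion layer bars are below 0.

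Among the other keratins no tested gene rose 2-fold. All 12 tested hair shaft keratins, which build the hard keratin of the hair fibre, fell by limma with Benjamini-Hochberg adjustment and at least 2-fold, with a median of -3.68. All 6 tested keratins of the inner root sheath and companion layer did so too, with a median of -3.77. Of all genes tested, 46.3% fell by that test and 9.81% were at least 2-fold lower. One probe a gene, the summed normalised intensity of the hair shaft keratins was 1349213 and 1546929 in wild type and 75313 and 76299 in K14-caSmad1, that of the inner root sheath and companion layer keratins 806378 and 885106 against 77539 and 83210, and that of the 10 keratins described 422931 and 432697 against 738139 and 808219. These hair follicle keratins thus fell on the same arrays on which 9 of the 10 keratins described rose, and all 12 and all 6 passed the test under each of the 7 scalings tried. In RNA of a cell population, fewer cells of a type and less RNA per cell cannot be told apart.

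Of the 9 tested keratins of other epithelia, 0 rose and 8 fell by limma with Benjamini-Hochberg adjustment, against 40.8% and 46.3% of all genes. At least 2-fold lower were 3 of them, against 9.81% of all genes. The simple-epithelial keratin Krt18 had a log2 ratio of -1.70, Krt13 had -1.63 and Krt7 had -1.28. Krt80 had -0.93, while Krt78 at -0.18 and Krt79 at -0.13 took the other sign under at least 1 other scaling, reaching 0.07 and 0.08. Krt8, the partner of Krt18, was not well above background in K14-caSmad1 and at least 1.59-fold lower by its brighter probe, while its other probe read -0.38. Krt23, at 0.11, did not pass the test.

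The keratinocyte label was checked against 12 markers of the basal and suprabasal layers other than these keratins. All 12 were tested and well above background in both genotypes, with a median log2 ratio of 0.77. By limma with Benjamini-Hochberg adjustment 9 rose and 2 fell, against 40.8% and 46.3% of all genes. The basal integrin subunit Itga6 rose by 1.5, and the desmosomal cadherins Dsc1 and Dsg1a by 1.30 and 1.25, while a second Dsc1 probe read 0.58. The cornified envelope precursor Ivl fell by 0.83. Their summed intensity was 321978 and 336972 in wild type and 458217 and 526453 in K14-caSmad1. Such sums weigh bright probes most and serve only to set the channels side by side.

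Genes that link or bundle keratin filaments moved in both directions. Of 14 tested, 5 rose and 6 fell by limma with Benjamini-Hochberg adjustment, shares near the 40.8% and 46.3% of all genes, and the median log2 ratio was -0.01, or 0.24 with median centring, where 8 rose and 5 fell. Flg2, which encodes a filaggrin relative of the cornified layer, was at least 2-fold higher on both arrays, at 1.75; it was the 1 such gene here, and there were 3 with median centring. Desmoplakin (Dsp), the plaque protein that anchors keratins to desmosomes, had 0.90 and 1.28, and its other probes read 0.75 and 0.03. Filaggrin itself (Flg), which bundles keratins in the cornified layer, had -0.80 and fell.

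The non-keratin intermediate filament genes were fewer. Of 5 tested, 2 rose and 2 fell by limma with Benjamini-Hochberg adjustment, shares near the 40.8% and 46.3% of all genes. Their median log2 ratio was 0.08. Vimentin (Vim), the filament protein of mesenchymal, immune and pigment cells, rose by 1.39. Nestin (Nes) was not well above background in K14-caSmad1 and was at least 1.2-fold lower.

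The stress keratins can be set beside other genes that wounded or inflamed epidermis switches on. Of 18 such genes on the array 16 were tested, and the median log2 ratio was -0.96. By limma with Benjamini-Hochberg adjustment 4 rose and 11 fell, against 40.8% and 46.3% of all genes. At least 2-fold higher was 1 and at least 2-fold lower were 7, against 4.09% and 9.81% of all genes. The protease inhibitor Serpinb3b rose by 2.17. The small proline-rich gene Sprr2h had a log2 ratio of -3.61. The connexin genes Gjb2 and Gjb6 had -3.40 and -3.06, with other probes at -1.07 and -2.52. The calprotectin subunit S100a9 had -3.55, and its K14-caSmad1 signal was well above background on only part of the arrays. Its partner S100a8 was at least 4.73-fold lower. Krt6a, Krt6b, Krt16 and Krt17 thus had positive ratios on arrays on which most tested genes of that list were lower, and the list's median was below 0 under each of the 7 scalings.

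Markers of other cells moved with the keratins in places. Their counts stand beside the 40.8% of all genes that rose and the 46.3% that fell by limma with Benjamini-Hochberg adjustment. Markers tested only through the wild-type channel are left out of that comparison. Of 8 immune markers on the array, 6 were tested and 5 rose by limma with Benjamini-Hochberg adjustment. Ptprc had a log2 ratio of 0.90, Cd3g 0.88 and the Langerhans cell gene Cd207 0.86. H2-Ab1, Cd74 and H2-Aa had only 0.14, 0.11 and 0 by their brightest tested probes, and H2-Aa did not pass. Other probes read 0.45 to 0.84 for H2-Ab1 and 0.48 for H2-Aa. The summed intensity of the 6 was 35485 and 44804 in wild type and 45585 and 54473 in K14-caSmad1. Cd3e and Lyz2 were not tested. All 5 tested of 8 fibroblast markers had negative ratios, with sums of 4628 and 4917 against 1724 and 1904. However, 0 of the 5 were well above background on both K14-caSmad1 arrays, so all entered the test only through the wild-type channel. A gene that enters this way can hardly come out higher, so no conclusion is drawn from their count. Lum, Pdgfra and Dpt were not tested. All 5 tested of 8 melanocyte markers fell, with sums of 6348 and 6393 against 3108 and 2885. Only 2 of the 5 were well above background on both K14-caSmad1 arrays. Kit, Slc45a2 and Mlana were not, and were tested only through the wild-type channel, so the same limit holds for them. Tyr, Tyrp1 and Sox10 were not tested. All 5 tested of 8 endothelial and erythroid markers fell, with sums of 5850 and 6041 against 2803 and 2791, and Pecam1 and Cdh5 were not tested. Only 1 of the 5, Hba-a1, was well above background on both K14-caSmad1 arrays, so that limit holds for the others too. The part of these cells in the keratin ratios was not tested.

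The keratin ratios held their sign under every processing setting tried except for Krt10. Between 5 and 7 of the 10 were at least 2-fold higher under each setting, and 0 were at least 2-fold lower under any. Krt2 ranged from 3.34 to 4.52 in mean log2 ratio, Krt1 from 1.74 to 2.01, Krt5 from 1.49 to 1.91, Krt6a from 1.14 to 1.44 and Krt14 from 1.04 to 1.28. Krt17 ranged from 0.80 to 1.04, Krt15 from 0.43 to 0.66 and Krt16 from 0.24 to 0.51. Krt10 ranged from -0.01 to 2.29, the high end being its other probe. With median centring in place of loess, the balance over all genes turned: 1110 genes were at least 2-fold higher and 811 lower (57.8% higher), against 480 and 1153 (29.4% higher), and the median of all genes moved from -0.03 to 0.22 and that of the 10 keratins from 1.11 to 1.36. With the scanner's processed signals the share higher was 40.1%.

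**Figure D5:**
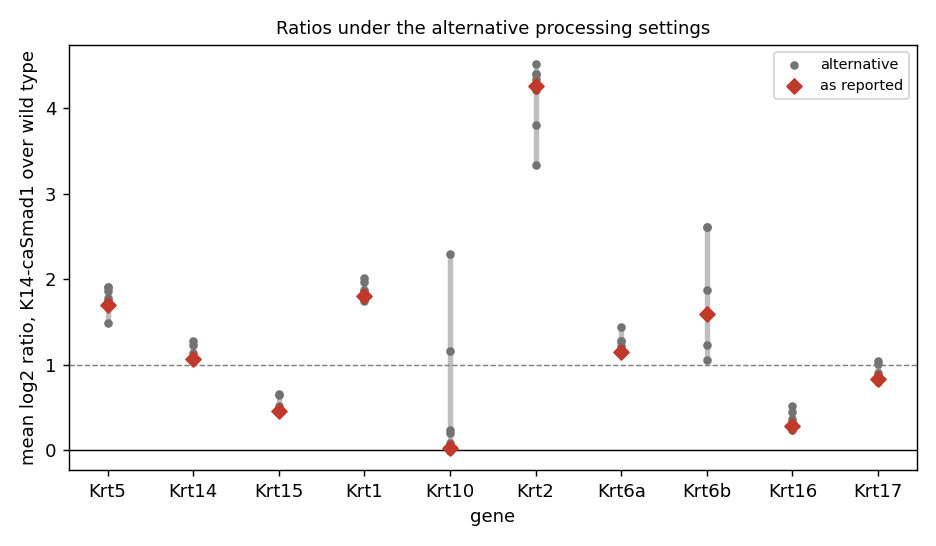
Mean log2 ratio of each of the 10 keratins as reported (diamonds) and under each alternative setting (grey points), with a dashed line at 2-fold higher. Krt10 spans the most, from -0.01 to 2.29, followed by Krt6b, from 1.05 to 2.61, while Krt1, Krt2, Krt5, Krt6a, Krt6b and Krt14 stay above the dashed line throughout.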

How the data were processed

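RNA of wild-type (Cy3) and K14-caSmad1 (Cy5) keratinocytes was hybridised to 2 two-colour arrays on 1 slide. Per the file headers, the deposited files come from Agilent Feature Extraction 10.5.1.1 and hold the mean signal intensity and local background intensity of each spot, not normalised, with probe positions on mm9. Background and dye were corrected by that software for the processed intensity and for its log10 ratio, per the file headers. The deposited table holds log10 ratios that matched the ratio of processed signals to within 0.00396 and 0.00397 on the log10 scale, with a slope of 1 and column medians of 0.023 and -0.01.

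Mean signals were corrected with normexp (offset 50) in limma 3.58.1 under R 4.3.3, without 36 spots of replicate 1 marked for a non-uniform local background. Log2 ratios were normalised within arrays by loess (span 0.3), with control spots at weight 0. A probe was tested if well above background on both arrays in at least 1 channel, which left 15105 of 41174 probes and 11748 genes. A gene was represented by its brightest tested probe, and every probe of the 10 keratins is reported. Mean log2 ratios were set against 0 in limma (lmFit, then eBayes), with Benjamini-Hochberg adjustment and a threshold of 0.05. The count of genes at least 2-fold apart the same way on both arrays stands beside it. Gaps between keratins are differences of log2 ratios within an array, without a test. "At least N-fold" is a bound from the lowest signal well above background, on values also Aquantile-normalised between arrays, and is open to dye bias. The number of arrays limits the precision.

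Gene names were updated through a RefSeq table: an accession named 24844 probes, a symbol 6045 and a synonym 1810, while 8475 stayed under the file's name. The keratins and lists were chosen with earlier results of these data known. From each list, up to 4 tested genes with the largest change of at least 2-fold on both arrays are named, with all tested keratins of other epithelia, all 10 keratins, and the 3 genes nearest in log2 ratio to the highest and lowest of these. Markers below that size, and further genes of the linker list, were named after their values were seen. The 3 genes nearest to Krt10, AK162987, Dcaf8 and Tti1, each had a log2 ratio of 0.02.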

Additional observations from a re-analysis of the deposited data

How the results depend on the processing

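Of the values for the gaps and counts described, most kept their direction and size. The gap between Krt6b and Krt16 (1.31) was 0.79 without background subtraction, 0.68 with all spots in normexp, 1.36 with median centring, and 2.32 with both Agilent's processed signals and the deposited table. The gap between Krt1 and Krt10 (1.78) fell to 0.64 when the probes of a gene were averaged and reversed to -0.49 with the dimmest tested probe, through the Krt10 probes. The Krt10 ratio (0.02) reversed to -0.01 with loess that gave keratin and keratin-associated genes no weight. The limma count (10236 genes) was 3268 with all spots in normexp and 17755 without the detection filter, which tests 27961 genes. Genes at least 2-fold apart, 480 higher and 1153 lower, numbered 3131 (1256 and 1875) with processed signals, 3137 (1257 and 1880) with the deposited table, and 776 (303 and 473) with all spots in normexp. Except for the construction of an alternative, the cause was not tested.

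Leaving out an array gave a gap of 0.40 to 0.86 for Krt5 and Krt14, 1.73 to 1.82 for Krt1 and Krt10, 1.28 to 1.34 for Krt6b and Krt16, and -0.60 to -0.50 for Krt16 and Krt17. It left 6 keratins at least 2-fold higher and 0 lower. A single array allows no limma test. The ratio within an array already pairs the genotypes, so no further block was fitted. Signals near background limit Krt6b, whose size moved with the background correction, and the disagreement of its probes limits Krt10.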
